A study of Homo sapiens with 4 samples.

Results

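The core circadian clock genes were described in RNA sequencing libraries of human bladder cancer cell lines that had been transfected with a circular RNA or with a vector alone. The 10 genes were taken by symbol from the deposited count table of 56303 genes: the activators CLOCK and ARNTL (the older symbol of BMAL1), the repressors PER1, PER2, PER3, CRY1 and CRY2, the nuclear receptors NR1D1 and NR1D2, and the output factor DBP. All 10 were present in the table and all 10 passed the filter on low counts, which kept 17689 genes. There were 4 groups of 1 library each: EJ cells transfected with hsa_circ_0008399 (EJ circ), EJ cells with vector (EJ vector), T24T cells transfected with hsa_circ_0008399 (T24T circ) and T24T cells with vector (T24T vector). The study asked which genes act downstream of this circular RNA. T24T, written T24 in the deposited tables, is a derivative of the T24 bladder carcinoma line, and stocks of EJ have been reported to share their origin with T24, so the lines may be related. The hour of harvest, any synchronisation of the cells and the number of cultures behind a library are not given in the sources used here.

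The clock is a feedback loop of transcription. CLOCK and ARNTL bind DNA together at E-box elements and activate the PER, CRY, NR1D and DBP genes. The PER and CRY proteins then return to the nucleus and repress CLOCK and ARNTL, while NR1D1 and NR1D2 (REV-ERB alpha and beta) repress ARNTL through ROR elements, and DBP activates genes with D-box elements, PER genes among them. Cultured cell lines can keep this loop running, but the cells of an unsynchronised dish are in different phases, and bulk RNA averages over them. The cold-inducible RNA-binding proteins RBM3 and CIRBP are known to bind transcripts of clock genes and to affect the amplitude of the rhythm in mouse cells.

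Circ libraries had less ARNTL mRNA than vector libraries in both lines. ARNTL was the 1 clock gene of 10 that passed the test over both lines, 1.43-fold lower in circ (log2 fold change -0.52, standard error 0.15, n = 2 lines, edgeR quasi-likelihood adjusted p = 0.0228); ± below is this standard error. Of all 17689 tested genes 12.7% passed in either direction, 7.13% as higher and 5.56% as lower in circ, so 1 of 10 lies near the background and is not a result about the clock genes as a group. PER2 had the next smallest p, with a log2 fold change of 0.41 ± 0.15 (edgeR adjusted p = 0.0576), and did not pass. The larger contrasts among these genes lay between the lines, where 7 of 10 passed against 41.4% of all tested genes.

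The promoters of the 4 clock genes with the smallest p for circ against vector (ARNTL, PER2, PER3 and NR1D1) are printed because the loop is wired through short elements near the start of these genes. Each window runs from 250 bases before to 50 bases after a start annotated by RefSeq (GRCh38.p14), and is written 5′ to 3′ on the gene's own strand. Capitals mark the letters of an E-box (CACGTG), a variant E-box called E-prime (CACGTT), a D-box (TTATGTAA or TTACGTAA) or the core of a ROR element (AGGTCA), searched on both strands. Where a gene has more than 1 annotated start, the window with more matches is shown.
ARNTL, chr11:13277540-13277839, plus strand: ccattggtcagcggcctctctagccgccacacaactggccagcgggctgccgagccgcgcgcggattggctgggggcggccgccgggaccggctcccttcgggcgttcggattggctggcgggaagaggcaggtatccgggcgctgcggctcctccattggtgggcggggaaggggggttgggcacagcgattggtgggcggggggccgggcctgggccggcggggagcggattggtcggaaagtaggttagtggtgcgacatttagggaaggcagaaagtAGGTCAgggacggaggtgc
PER2, chr2:238288561-238288860, minus strand: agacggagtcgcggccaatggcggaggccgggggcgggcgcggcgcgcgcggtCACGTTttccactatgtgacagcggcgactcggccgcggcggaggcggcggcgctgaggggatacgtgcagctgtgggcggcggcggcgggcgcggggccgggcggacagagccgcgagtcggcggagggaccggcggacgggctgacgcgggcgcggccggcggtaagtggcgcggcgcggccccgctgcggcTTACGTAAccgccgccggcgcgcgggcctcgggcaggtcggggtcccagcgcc
PER3, chr1:7784041-7784340, plus strand: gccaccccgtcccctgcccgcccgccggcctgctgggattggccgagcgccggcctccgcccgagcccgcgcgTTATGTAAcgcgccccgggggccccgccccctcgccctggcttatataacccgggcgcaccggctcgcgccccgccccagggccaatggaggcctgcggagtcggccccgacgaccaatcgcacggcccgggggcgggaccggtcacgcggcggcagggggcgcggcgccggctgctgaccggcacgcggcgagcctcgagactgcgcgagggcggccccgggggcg
NR1D1, chr17:40100540-40100839, minus strand: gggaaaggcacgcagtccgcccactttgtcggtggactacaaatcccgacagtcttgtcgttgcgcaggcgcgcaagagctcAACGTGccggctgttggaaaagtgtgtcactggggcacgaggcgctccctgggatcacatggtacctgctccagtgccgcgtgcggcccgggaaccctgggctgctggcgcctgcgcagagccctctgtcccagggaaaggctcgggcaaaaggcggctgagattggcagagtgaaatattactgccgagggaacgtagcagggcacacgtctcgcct

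Over the 15 windows of the 10 genes, all of which were matched by symbol or synonym, the E-box letters were found in 2 windows, of PER1 and NR1D2, and in 7.26% of the 35114 windows of all genes. E-prime letters were in 5 of the 15 windows (CLOCK, PER2, CRY1, CRY2 and NR1D1) and in 5.34% of all windows. D-box letters were in 3 of the 15 (PER2, PER3 and NR1D2), beside 1.01% of all windows, and the ROR core was in 4 (ARNTL, PER1 and both windows of CRY2), beside 13.8%. In ARNTL the ROR core begins 32 bases after the start, and in PER2 the D-box letters begin 3 bases before it. The DBP window held none of these letters. These matches describe the windows only.

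**Figure D1:**
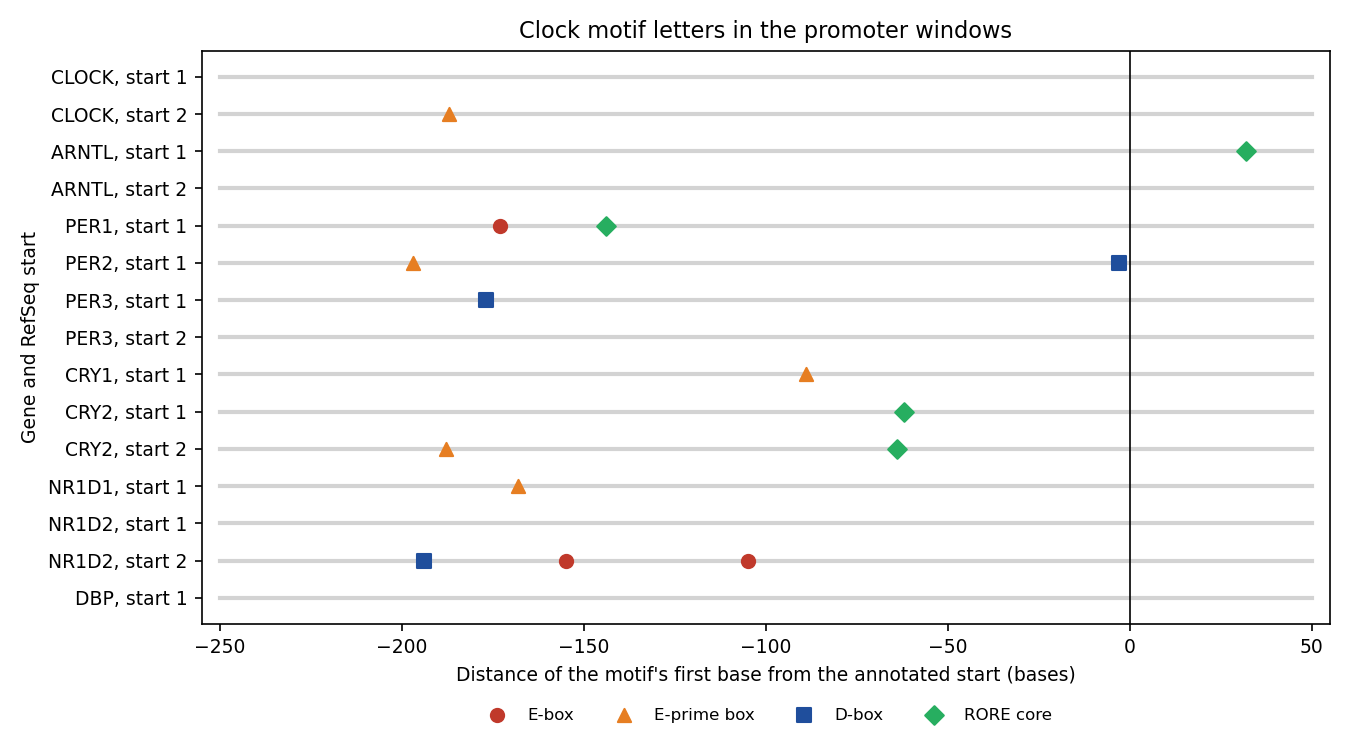
Position of each motif match in the promoter windows of the 10 clock genes, as the distance of its first base from the RefSeq start in bases. Grey lines are the windows, 1 row per annotated start, and symbols are E-box, E-prime, D-box and ROR core (RORE) letters. The 2 E-boxes of NR1D2 lie 155 and 105 bases before its second annotated start.

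All 10 genes were expressed at low to moderate levels. On the scale of RPKM (reads scaled by the deposited gene length and library total), the levels ran from 0.794 for CRY2 in T24T vector to 10.1 for NR1D1 in T24T circ. The order of genes depends on that length, 1 value per gene, which need not be the length of the transcripts present. For DBP it was 6544 bases in a locus from 48630030 to 48637438, most of the locus. CRY1, which encodes a stable repressor of the loop, was at 8.06 RPKM in EJ circ, 7.64 in EJ vector, 6.44 in T24T circ and 6.21 in T24T vector. It was first in both EJ libraries and second in both T24T libraries. NR1D1 was first in T24T circ (10.1 RPKM) and T24T vector (9.33 RPKM), and followed CRY1 and PER3 in EJ circ (3.51 RPKM) and CRY1, PER3 and PER1 in EJ vector (2.15 RPKM).

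PER3, second in EJ circ (6.58 RPKM) and EJ vector (5.83 RPKM), stood below NR1D1, CRY1 and PER1 in T24T circ (3.75 RPKM) and in T24T vector (3.04 RPKM), where it overlapped NR1D2 (3.11 RPKM). CRY2, the paralogue of CRY1, was last in EJ vector and both T24T libraries, and above DBP and ARNTL in EJ circ. The low end of the order is not resolved by counting error, since the 95% Poisson intervals of CRY2 (1.04 RPKM), DBP (0.977 RPKM) and ARNTL (0.950 RPKM) overlapped in EJ circ. In T24T circ those of ARNTL (1.40), CLOCK (1.37) and DBP (1.35 RPKM) overlapped as well. At the upper end, the intervals of CRY1 and PER3 did not overlap in EJ circ or EJ vector, nor did those of NR1D1 and CRY1 in T24T circ or T24T vector.

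**Figure D2:**
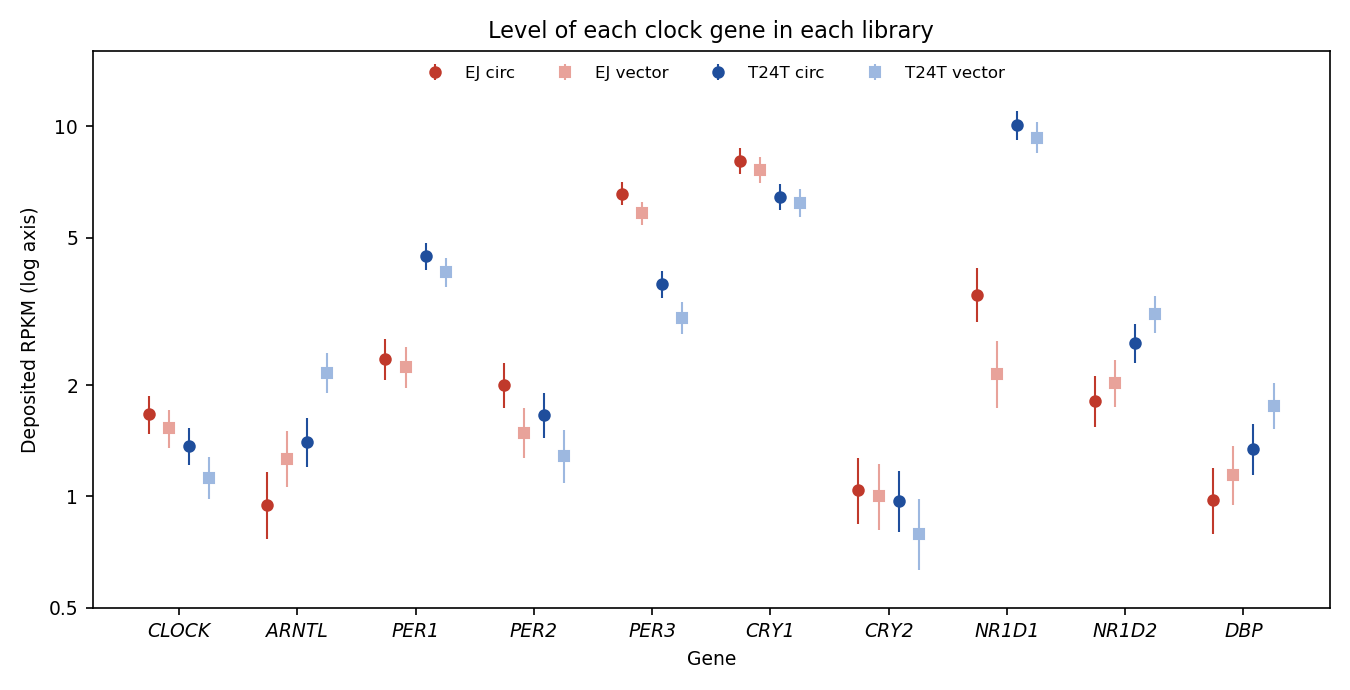
Deposited RPKM of each clock gene in each library (log axis), with 1 point per library and bars for the exact 95% Poisson interval of its count, which covers counting error only. NR1D1 stood at 10.1 and 9.33 RPKM in T24T circ and T24T vector, against 3.51 and 2.15 RPKM in EJ circ and EJ vector. ARNTL was lower in circ than in vector in each line.

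Of the activators, ARNTL fell and CLOCK was not called, and the genes were not tested against each other. ARNTL had 94 counts in EJ circ against 133 in EJ vector, and 170 in T24T circ against 245 in T24T vector. Scaled by TMM, these were 6.28 CPM (counts scaled to library size) in EJ circ and 8.30 in EJ vector, and 9.71 CPM in T24T circ and 14.7 in T24T vector. The circ library was the lower in each line, although T24T circ still lay above EJ vector. The fold of circ over vector was 0.756 in EJ (95% counting interval 0.574 to 0.992) and 0.659 in T24T (0.538 to 0.804). CLOCK, the partner of ARNTL and a histone acetyltransferase, had 288 counts in EJ circ against 281 in EJ vector, and 290 in T24T circ against 223 in T24T vector. Its log2 fold change was 0.22 ± 0.13 (edgeR adjusted p = 0.292), so no difference was called. The call for ARNTL rests on a fit with 1 residual degree of freedom, in which the spread comes mostly from all genes together. Limma on log2(RPKM + 1) did not call ARNTL (adjusted p = 0.217), nor did edgeR without the cell line as a block, and DESeq2 gave an unadjusted p of 0.0839 and no adjusted p.

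None of the repressor genes was called between circ and vector. PER2, whose protein carries the CRY proteins into the repressive complex, had 202 counts in EJ circ against 160 in EJ vector, and 206 in T24T circ against 149 in T24T vector, so that both circ libraries lay above both vector libraries. The fold was 1.35 in EJ (95% counting interval 1.09 to 1.67) and 1.31 in T24T (1.06 to 1.63), and PER2 passed only with RLE scaling (adjusted p = 0.0484). PER3, whose protein is the least essential to the rhythm of the PER paralogues in mice, had 783 counts in EJ circ against 738 in EJ vector, and 548 in T24T circ against 415 in T24T vector. Its log2 fold change was 0.25 ± 0.10 (edgeR adjusted p = 0.10). PER1, which is also induced acutely by cAMP and glucocorticoid signals, had 242 counts in EJ circ against 245 in EJ vector, and 564 in T24T circ against 477 in T24T vector, with a log2 fold change of 0.13 ± 0.11 (edgeR adjusted p = 0.523). PER1 and PER3 were not called.

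The CRY genes encode the other repressors, and neither was called. CRY1 had 600 counts in EJ circ against 605 in EJ vector, and 589 in T24T circ against 530 in T24T vector. Its log2 fold change was 0.08 ± 0.10 (edgeR adjusted p = 0.671), with a 95% interval of -0.12 to 0.29 from the fit. CRY2 had 95 counts in EJ circ against 97 in EJ vector, and 109 in T24T circ against 83 in T24T vector. With fewer reads its interval was wider, from -0.19 to 0.57 around a log2 fold change of 0.19.

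Neither nuclear receptor of the second loop was called. NR1D1, the stronger repressor of ARNTL, had 143 counts in EJ circ against 93 in EJ vector, and 504 in T24T circ against 436 in T24T vector. In EJ the fold was 1.64 (95% counting interval 1.26 to 2.16), the largest difference of any of the 10 genes within a line, and in T24T it was 1.10 (0.963 to 1.25). The lines' log2 ratios were 0.71 in EJ and 0.13 in T24T, and the gap between them was not tested, as no residual degree of freedom would be left. Over both lines NR1D1 had a log2 fold change of 0.33 ± 0.14 (edgeR adjusted p = 0.111) and was not called. NR1D2, which shares the DNA site of NR1D1, had 155 counts in EJ circ against 184 in EJ vector, and 273 in T24T circ against 305 in T24T vector (log2 fold change -0.20 ± 0.13, edgeR adjusted p = 0.376).

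DBP, a bZIP activator whose transcript is a common readout of CLOCK and ARNTL activity, had 94 counts in EJ circ against 117 in EJ vector, and 159 in T24T circ against 194 in T24T vector. Its log2 fold change was -0.30 ± 0.16 (edgeR adjusted p = 0.236), with lower values in circ in both lines and no call. No clock gene differed 2-fold between circ and vector in either line, where 3.83% of tested genes did so in EJ and 3.91% in T24T.

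Each of the 10 genes had a log2 ratio of the same sign in EJ and T24T: CLOCK, the 3 PER genes, both CRY genes and NR1D1 were positive, and ARNTL, NR1D2 and DBP were negative. The counting intervals of the fold lay clear of equality in both lines only for ARNTL, PER2 and PER3. They included equality in both lines for PER1, CRY1, CRY2 and NR1D2, in EJ for CLOCK and DBP, and in T24T for NR1D1. Those signs are not resolved by counting error. Among all tested genes 65.7% had the same sign in both lines, and 69.6% of the 12463 genes with 50 counts in a library of each line. The 10 genes belong to the same loop, so their signs need not be independent, and the count was not tested. The count of 10 was the same under the 6 other scalings, prior counts and RPKM scales tried. These settings reuse the same counts and could hardly change a sign, so this is no further support. The median log2 fold change of the 10 genes was 0.16, beside 0.0018 over all tested genes.

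**Figure D3:**
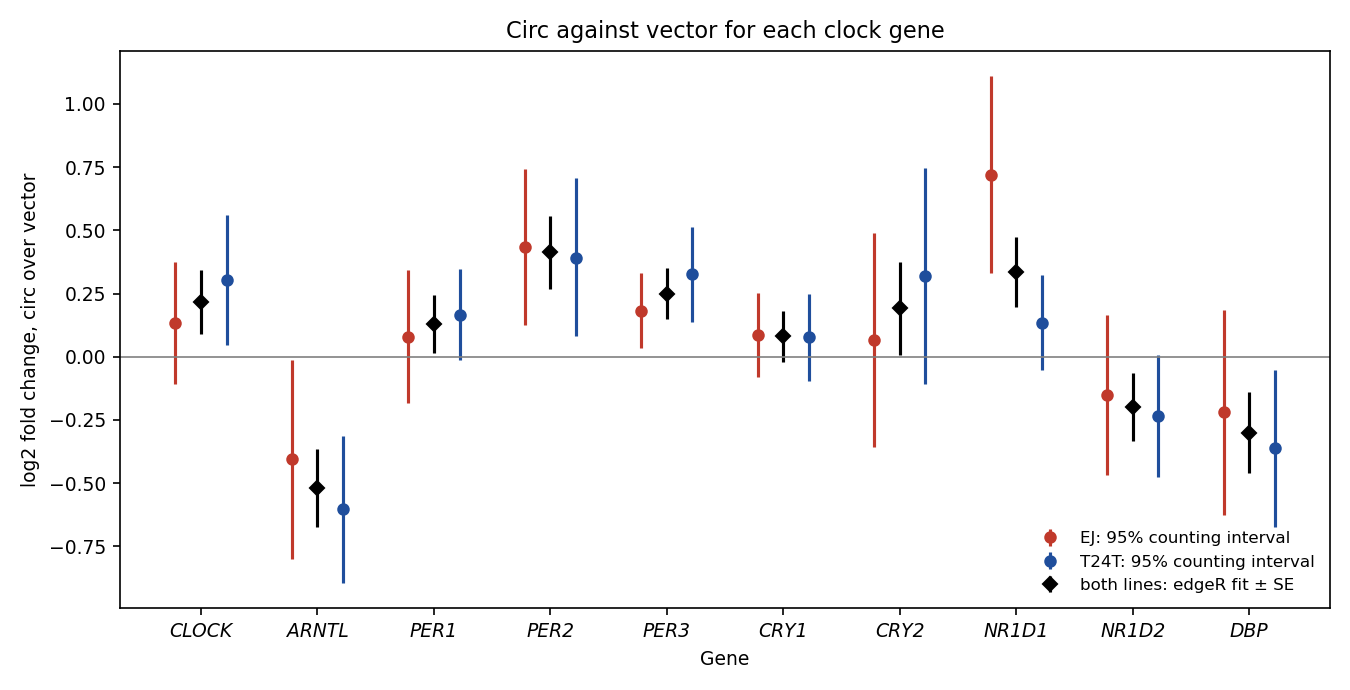
Log2 fold change of circ over vector for each clock gene: EJ and T24T alone with exact 95% intervals of the counts, and both lines in the edgeR fit with its standard error. ARNTL lies below 0 in both lines, and the circ over vector ratio of NR1D1 is larger in EJ than in T24T, a gap that was not tested.

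Some of these genes share exon bases with a gene on the opposite strand, and the use of strand in counting is not given in the sources used here. NR1D1 (chromosome 17, 40092787 to 40100725, minus strand, hg38) shares 263 bases, 9.49% of its length, with THRA, which had 379 counts in EJ circ against 481 in EJ vector and 665 in T24T circ against 704 in T24T vector. DBP (chromosome 19, 48630030 to 48637438, minus strand) shares 661 bases, 10.1%, with SPHK2. PER3 (chromosome 1, 7784320 to 7845177, plus strand) shares 868 bases, 10.7%, with UTS2 and 482 with RP3-467L1.4, and PER2 (chromosome 2, 238244038 to 238290102, minus strand) shares 188 bases, 2.73%, with AC096574.4. CRY1 (chromosome 12, 106991364 to 107093829), CLOCK (chromosome 4, 55427903 to 55547138) and PER1 (chromosome 17, 8140472 to 8156506), all on the minus strand, share under 2% of their length with another gene. Reads from stretches shared with the opposite strand cannot be assigned to either gene without strand, and the 30 bases of PER1 are shared with a gene on its own strand, where strand does not help. ARNTL (chromosome 11, 13276652 to 13387266, plus strand), NR1D2 (chromosome 3, 23945260 to 23980618, plus strand) and CRY2 (chromosome 11, 45847118 to 45883248, plus strand) share no exon base with another gene of the table.

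The genes whose pattern over the 4 libraries was closest to that of ARNTL, by Euclidean distance between centred log2 CPM values among 11880 other genes with 50 counts in every library, were MED4-AS1 (distance 0.055), C16orf13 (0.061) and ZNF358 (0.070). For PER2 they were C9orf43 (0.027), RP11-513D5.5 (0.040) and PPAN-P2RY11 (0.048). With 4 points a close match is easily found, and C9orf43, with 729 counts in EJ circ against 575 in EJ vector, passed the test (edgeR adjusted p = 0.00366) where PER2 did not.

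Of 13 further factors of the clock loop, 10 could be tested, 3 rose and 1 fell, beside 7.13% and 5.56% of all tested genes, with a median log2 fold change of 0.13. BHLHE41 and BHLHE40, known as DEC2 and DEC1, encode repressors that compete for the E-box. BHLHE41 had 192 counts in EJ circ against 113 in EJ vector, and 469 in T24T circ against 306 in T24T vector, and rose by a log2 fold change of 0.67 ± 0.13 (edgeR adjusted p = 0.000828). The circ library was the higher in each line, with folds of 1.82 (95% counting interval 1.43 to 2.31) in EJ and 1.45 (1.26 to 1.69) in T24T. BHLHE40 had 3408 counts in EJ circ against 3415 in EJ vector, and 4937 in T24T circ against 2922 in T24T vector, and rose by 0.39 ± 0.10 (edgeR adjusted p = 0.00727). Its rise lay mostly in T24T, with a log2 ratio of 0.68 there and 0.09 in EJ. NOCT, which encodes the rhythmic phosphatase nocturnin, rose by 0.47 ± 0.16 (edgeR adjusted p = 0.0468), with 125 counts in EJ circ against 88 in EJ vector and 221 in T24T circ against 162 in T24T vector. NOCT did not pass with library size alone as the scaling (edgeR adjusted p = 0.0558) or with the stricter filter on low counts (0.0660).

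NPAS2, the paralogue of CLOCK that can replace it as the partner of ARNTL, fell by 0.58 ± 0.16 on the log2 scale (edgeR adjusted p = 0.0164). It had 36 counts in EJ circ against 24 in EJ vector, and 555 in T24T circ against 905 in T24T vector, so that the fall rests on T24T, where the log2 ratio was -0.78, while in EJ it was 0.64, higher in circ. TEF, a bZIP relative of DBP, had 117 counts in EJ circ against 163 in EJ vector, and 125 in T24T circ against 168 in T24T vector. Both circ libraries lay below both vector libraries, and the log2 fold change of -0.44 ± 0.16 did not pass (edgeR adjusted p = 0.0619). CIART and HLF were too low to test, with at most 1 count in any library, and RORA and RORB had between 0 and 15 counts. DESeq2 called none of BHLHE40, BHLHE41 and NPAS2, with adjusted p of 0.145, 0.10 and 0.968.

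Of 14 kinases, ubiquitin ligases and other modifiers of clock proteins, 13 could be tested, 0 rose and 1 fell in edgeR, beside 7.13% and 5.56% of all tested genes (4 at an unadjusted p under 0.05; median log2 fold change 0.03). The fall was that of CSNK1E, casein kinase 1 epsilon, which phosphorylates PER proteins and marks them for degradation. CSNK1E had 683 counts in EJ circ against 970 in EJ vector, and 1838 in T24T circ against 1990 in T24T vector (-0.29 ± 0.09, edgeR adjusted p = 0.0264). DESeq2 did not call it (adjusted p = 0.287), nor did limma on either RPKM scale (0.184 and 0.168), and the fall was larger in EJ (log2 ratio -0.41) than in T24T (-0.19), a gap that was not tested. Its paralogue CSNK1D had a log2 fold change of 0.0061 ± 0.08 (edgeR adjusted p = 0.976).

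Of 9 genes known as outputs of the clock, all testable, KLF10 rose, PPARA fell and 7 were not called, so that 2 of 9 passed beside 12.7% of all tested genes (median log2 fold change 0.04). KLF10, a zinc finger repressor that TGF-beta also induces, had 649 counts in EJ circ against 234 in EJ vector, and 993 in T24T circ against 512 in T24T vector. It rose by 1.19 ± 0.12 (edgeR adjusted p = 3.34e-08) and stood well above its vector library in each line. PPARA, the fatty acid-sensing nuclear receptor, fell by 0.51 ± 0.15 on the log2 scale (edgeR adjusted p = 0.0165), with 131 counts in EJ circ against 216 in EJ vector and 175 in T24T circ against 221 in T24T vector.

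**Figure D4:**
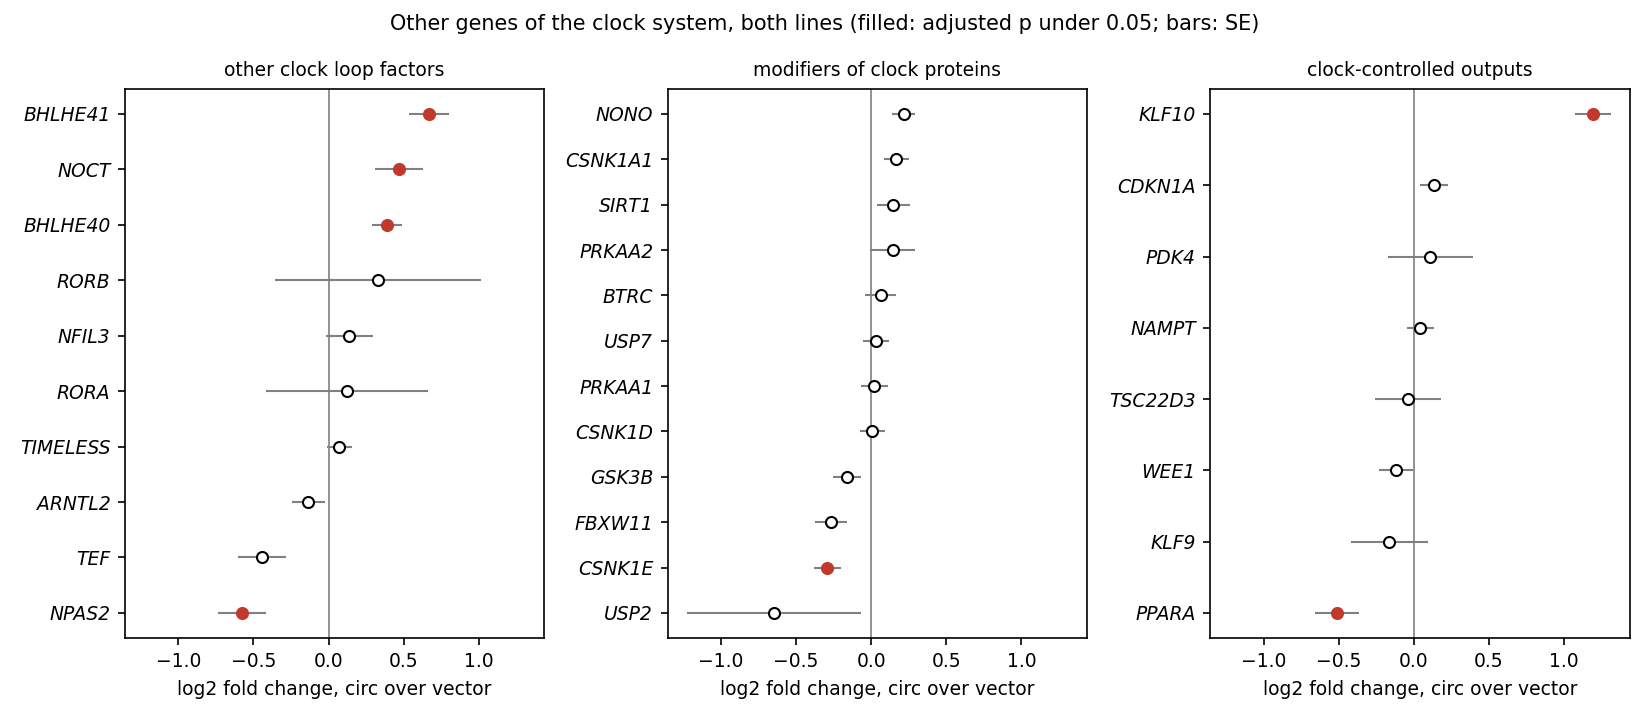
Log2 fold change of circ over vector in the edgeR fit over both lines, with standard errors, for tested genes of 3 lists: other clock loop factors, modifiers of clock proteins and clock-controlled outputs. Filled points passed an adjusted p of 0.05: BHLHE41, BHLHE40, NOCT and KLF10 were higher in circ, and NPAS2, CSNK1E and PPARA were lower.

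Signals that act on PER1 were followed through their other targets. Of 7 CREB-responsive genes 3 rose, beside 7.13% of all tested genes, led by FOS (2.02 ± 0.21, edgeR adjusted p = 7.37e-08), with NR4A1 (0.68 ± 0.19) and DUSP1 (0.58 ± 0.18). The median log2 ratio of the 7 was -0.10 in EJ and 0.42 in T24T. Only 4 of the 7 had the same sign in both lines, beside 65.7% of all tested genes. Of the 5 testable glucocorticoid-responsive genes, of 6 listed, 2 rose, beside 7.13% of all tested genes. These were FKBP5 (0.40 ± 0.09) and again DUSP1, which is on both lists. The median log2 ratio of the 5 was -0.27 in EJ and 0.39 in T24T, and only 1 of the 5 had the same sign in both lines. KLF9 had -0.16 ± 0.26 and did not pass, with 7 counts in EJ circ against 21 in EJ vector (log2 ratio -1.28) and 119 in T24T circ against 107 in T24T vector (0.08). NR4A1 had a log2 ratio of 0.25 in EJ, with 47 counts in EJ circ against 42 in EJ vector, and of 0.86 in T24T. The DUSP1 call rests on T24T, with 2350 counts in T24T circ against 821 in T24T vector but 1233 in EJ circ against 1592 in EJ vector. FOS had low counts, with 90 in EJ circ against 19 in EJ vector, and 199 in T24T circ against 52 in T24T vector. DESeq2 called neither DUSP1 (adjusted p = 0.823) nor FKBP5 (adjusted p = 0.128), and gave FOS and NR4A1 no adjusted p. Limma on log2(RPKM + 1) called neither FOS (adjusted p = 0.106) nor NR4A1 (adjusted p = 0.305). PER1 itself was not called in the edgeR fit.

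Of the cold-inducible proteins, RBM3 had 16010 counts in EJ circ against 4361 in EJ vector, and 13240 in T24T circ against 4641 in T24T vector. CIRBP had 764 counts in EJ circ against 513 in EJ vector, and 814 in T24T circ against 587 in T24T vector (log2 fold change 0.53 ± 0.10, edgeR adjusted p = 0.000445). The CIRBP call was lost with DESeq2 (adjusted p = 0.0633). hsa_circ_0008399 is known as a circle of the RBM3 gene, and in a table with 1 value per gene its reads cannot be told apart from those of linear RBM3 mRNA, so the RBM3 values may hold reads of the transfected circle. Both genes were higher in the libraries in which ARNTL was lower, and their part in that was not tested.

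Between the lines the clock genes differed more. T24T was set against EJ in the same fit, with transfection as the block, and 5 clock genes were higher in T24T and 2 lower, against 21.9% and 19.5% of all tested genes. NR1D1 led with a log2 fold change of 1.86 ± 0.14 (edgeR adjusted p = 1.12e-12), 3.63-fold higher in T24T. Its 504 and 436 counts in T24T circ and T24T vector lay above the 143 and 93 in EJ circ and EJ vector. PER1 was 1.93-fold higher in T24T (0.95 ± 0.11, edgeR adjusted p = 3.47e-08). ARNTL (0.74 ± 0.15), NR1D2 (0.64 ± 0.13) and DBP (0.61 ± 0.16) were also higher in T24T, with edgeR adjusted p of 0.000232, 0.000266 and 0.00260. Thus both ARNTL and NR1D1, its repressor, were higher in the same line.

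PER3 was 1.75-fold lower in T24T, with a log2 fold change of -0.81 ± 0.10 (edgeR adjusted p = 5.77e-08), and CRY1 was lower by a small margin (-0.25 ± 0.10, edgeR adjusted p = 0.0476). CLOCK (-0.30 ± 0.13, edgeR adjusted p = 0.0581), PER2 (-0.18 ± 0.15, 0.346) and CRY2 (-0.15 ± 0.18, 0.558) did not pass. The PER paralogues thus parted between the lines, PER1 being higher and PER3 lower in T24T. DESeq2 called 3 of the 7, PER1, PER3 and NR1D1.

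NPAS2 differed most among the loop factors, with 555 and 905 counts in T24T circ and T24T vector against 36 and 24 in EJ circ and EJ vector (log2 fold change 4.45 ± 0.19, edgeR adjusted p = 2.82e-19). In T24T vector NPAS2 stood at 4.30 RPKM beside 1.12 for CLOCK, while in EJ vector NPAS2 was at 0.123 RPKM beside 1.53 for CLOCK. BHLHE41 (1.21 ± 0.13) and NFIL3 (1.06 ± 0.16), a repressor at D-box sites, were higher in T24T, and TIMELESS (-0.74 ± 0.08), which in mammals acts mainly at replication forks, was lower. CSNK1E was 2.13-fold higher in T24T (1.09 ± 0.09). WEE1, CDKN1A and NAMPT, cell cycle and NAD synthesis genes known as clock outputs, were 2.26-fold, 2.15-fold and 2.57-fold higher in T24T. All of these passed the test.

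**Figure D5:**
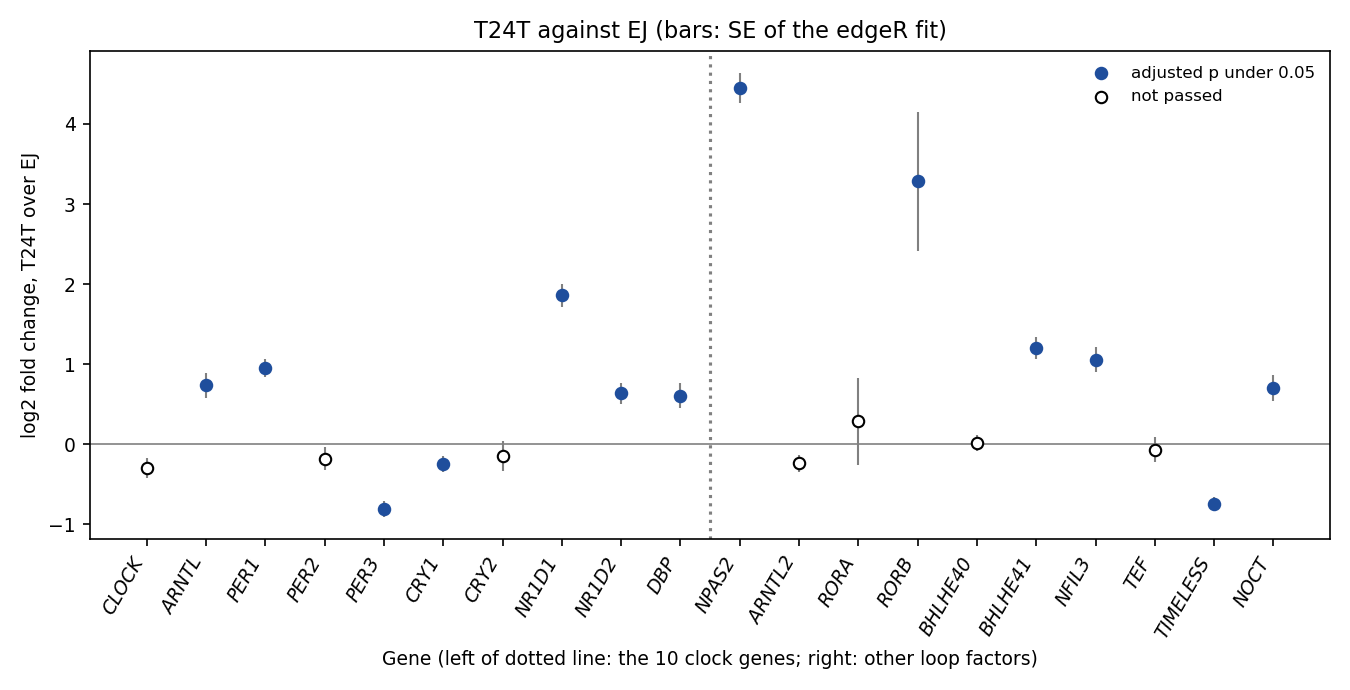
Log2 fold change of T24T over EJ in the edgeR fit, with standard errors, for the 10 clock genes (left of the dotted line) and the tested loop factors (right). Filled points passed an adjusted p of 0.05. NR1D1 (1.86) and NPAS2 (4.45) stand highest of the genes with over 50 counts in a library, while PER3 (-0.81) and TIMELESS (-0.74) stand lowest.

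Library totals ran from 14703455 counts in EJ circ to 18057768 in T24T circ. At this depth the clock genes had 83 to 783 counts per library, and the counting interval of CRY2 in T24T, at 109 against 83 counts, ran from 0.928-fold to 1.68-fold. Markers of the labelled tissue were partly absent, and the urothelial genes UPK3A and KRT5 had 0 counts in all 4 libraries. Of 6 epithelial markers, KRT7, KRT8 and KRT18 had between 2164 and 14341 counts, while CDH1 and KRT19 had at most 4. EPCAM had 4 counts in EJ circ and 7 in EJ vector, and 111 in T24T circ and 117 in T24T vector. The summed level of 7 basal markers was 716 CPM in EJ circ and 785 in EJ vector, and 880 in T24T circ and 1053 in T24T vector. That basal sum is nearly all CD44 and EGFR, with between 4083 and 13673 counts. The summed level of 9 luminal markers was 12.7 CPM in EJ circ and 14.9 in EJ vector, and 37.7 in T24T circ and 32.9 in T24T vector. Only 2 of the 9, ELF3 and FOXA1, reached 50 counts in a library, and they went opposite ways between the lines. ELF3 had 80 counts in EJ circ and 101 in EJ vector, and 534 in T24T circ and 432 in T24T vector. FOXA1 had 55 in EJ circ and 70 in EJ vector, and 27 in T24T circ and 26 in T24T vector. Of the 5 luminal markers that could be tested, 2 were called higher in T24T and 1 lower. Of 6 leukocyte markers 4 were at 0 in all libraries, and their sum was 14.8 CPM in EJ circ and 10.4 in EJ vector, and 61.6 in T24T circ and 56.5 in T24T vector. That sum is nearly all CD68, with 216 counts in EJ circ and 160 in EJ vector, and 1111 in T24T circ and 951 in T24T vector, while CD14 had at most 2 counts. The sum of 7 endothelial or stromal markers lay between 8.77 and 9.49 CPM. This sum hides 2 opposite calls for circ against vector, in the 2 of these markers that could be tested. RGS5 was higher in circ (0.72 ± 0.22, edgeR adjusted p = 0.0269) and MYH11 was lower (-0.75 ± 0.21, edgeR adjusted p = 0.0177). The part of the marker differences in the line comparison was not tested, and in bulk RNA fewer cells of a type and less RNA per cell cannot be told apart.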

How the data were processed

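RNA sequencing was compared in 4 libraries, 1 per group. Per the submitters' processing notes, the tools were Trimmomatic and HISAT2, with hg38, and no version is given; the counting tool, annotation and use of strand are not given in the sources used here. The authors deposited raw read counts per gene, and RPKM values for 29817 genes, 100% of which could be recomputed from count, length and library total (relative tolerance 1e-06). Columns were matched to samples by their descriptions, and 0 other sample columns were left out.

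Genes with 10 counts in at least 1 library and 20 over the 4 libraries were kept. The deposited counts were scaled by TMM and fitted with the edgeR 4.0.16 quasi-likelihood test, with cell line and transfection as terms and Benjamini-Hochberg adjustment over 17689 genes at 0.05. The fit has 1 residual and 30.5 prior degrees of freedom. Its spread comes from the difference in circ response between the lines and mostly from all genes together. The p-values measure that spread, which may be technical, and not variation between separate cultures of a line. This holds for T24T against EJ too, where the circ and vector libraries of a line stand in for replicates. Within a line there is no replicate and no test; log2 ratios used a prior count of 2, and folds carry exact 95% binomial intervals. These intervals, and the Poisson intervals of RPKM, cover counting error only. The standard error is the absolute log2 fold change over the square root of the F statistic of the fit. Intervals given as from the fit are built on that standard error. The fit was tested on simulated counts.

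Alternatives were RLE and library-size scaling, other filters, prior counts of 0.5 and 10, DESeq2 1.42.0, limma 3.58.1 (voom, log2(RPKM + 1), log2(RPKM + 0.1)), no cell line term, and each line alone. The 10 clock genes and the other gene lists were chosen with earlier results of these data known. Named genes are the 10, the genes of 3 clock lists, with every one that passed for circ against vector, up to 3 of the CREB and glucocorticoid lists by mean ratio, RBM3 and CIRBP, and the 3 nearest genes to each of 2 clock genes. THRA, SPHK2 and the other overlapping genes were named for their position. Results for some listed genes are not reported here.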

Additional observations from a re-analysis of the deposited data

Results flagged for a closer look

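No clock gene had opposite responses to circ in the lines beyond counting error. Among the other listed genes described here, 2 were higher in circ in T24T and lower in circ in EJ, each beyond its 95% counting interval, and these differences between lines were not tested. The log2 ratio of DUSP1 was 1.71 greater in T24T than in EJ, and that of ERRFI1 was 0.55 greater.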

How the results depend on the processing

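No paired analysis was possible because the labels give no replicate numbers, beyond the pairing by cell line that is already a term of the fit. Over both lines 2246 genes were called, but 334 with DESeq2 and 0 with limma on log2(RPKM + 1) (3588 at an unadjusted p under 0.05), 0 on log2(RPKM + 0.1) (3713) and 0 without the cell line term (397). Of the clock genes 1 was called, but 2 with RLE scaling, which added PER2, and 0 with DESeq2, both RPKM scales and no cell line term (1 on each RPKM scale and 0 in the other fits at an unadjusted p under 0.05). DESeq2 gave 6 of the 10 an adjusted p, ARNTL not among them, so those have no value there. The ARNTL log2 fold change ran from -0.60 to -0.31 over its alternatives, with adjusted p from 0.00986 to 0.99999, and that of PER2 from 0.24 to 0.43. Between the lines 7315 genes and 7 clock genes were called, but 3217 and 3 with DESeq2, and 4 clock genes on log2(RPKM + 1). With library size alone 3392 genes were called higher and 4184 lower in T24T, against 3870 and 3445 with TMM. Without T24T, NPAS2 was 0.64 and DUSP1 -0.27, opposite to the fit. Of the clock genes' values recomputed under alternatives, 0 of 106 over both lines, 0 of 60 within each line and 0 of 80 between lines changed direction. The cause of these shifts was not tested. Depth limits the lower clock genes: CRY2 had 83 to 109 counts.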
